A study of Mus musculus with 12 samples.

Results

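Peritoneal macrophages of C57BL/6 mice given IL-4 complex (IL4c) were compared with those of mice given thioglycollate (TG) after both had been kept with SPARC for 24 h, across every expressed gene. The libraries were chosen by their labels alone, 3 for each injection, and are 6 of the 12 in the series. The other 6 are macrophages of the same injections kept untreated for 24 h and serve as the comparator. The labels do not say whether untreated and SPARC wells of a number held cells of the same mouse. In the TG group, 3% thioglycollate broth was injected 1 time and the peritoneum was washed out 4 days later. In the IL4c group, 5 µg of IL-4 bound to 25 µg of an antibody against IL-4 was injected 2 times, and the cells were collected 2 days after the last injection. In all groups the lavage was 7 ml, 3000000 cells were seeded, the cells were given 2 h to adhere before washing, and SPARC was given at 20 µg/ml or left out. The cells were neither sorted nor depleted of other types before seeding, so each library is polyadenylated RNA from whatever adhered. Age and sex are not given in the labels used here, and nothing states whether the libraries of a group came from separate mice, so the p-values measure only the spread between these libraries, which may be technical.

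Thioglycollate broth is a sterile irritant that draws blood monocytes into the peritoneum, where they become macrophages. IL-4 complex is a long-acting form of IL-4, which acts through its receptor, Janus kinases and the transcription factor STAT6, makes resident macrophages divide and turns on the secreted and surface proteins of alternative activation. Large resident peritoneal macrophages depend on the transcription factor GATA6, whereas cells that arrived recently from blood carry monocyte genes such as Ly6c2 and Ccr2. SPARC is a secreted protein of the extracellular matrix that binds collagens. The comparison asks which of the differences set by the 2 injections were present once both cell populations had met SPARC.

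The deposited counts summed to between 31501941 and 42288785 per library, and 15232 of the 47729 genes passed the filter on low counts. Libraries numbered 1 of the TG group stood apart from the other TG libraries in both treatments, with correlations of log counts to them of 0.9414 to 0.9529, against 0.9903 and 0.9915 between the other TG libraries of a treatment. In SPARC wells the 16 tested B cell markers summed to 2308 CPM (read counts scaled to library size) in TG library 1, to 198 and 251 CPM in TG libraries 2 and 3, and to 92.9 to 217 CPM in the IL4c libraries. Tested T and NK cell markers, 12 of 17, summed to 61.7 CPM in TG library 1, 442 and 391 CPM in TG libraries 2 and 3, and 58.0 to 93.9 CPM in the IL4c libraries. Whether a type had more cells or more RNA per cell cannot be told apart in these bulk libraries, and the part of these other cells in the results was not tested. In every SPARC library 2 macrophage markers were found. Csf1r, the receptor for the macrophage growth factor CSF1, was at 1234 to 1453 CPM, and Spi1, the macrophage transcription factor PU.1, at 195 to 219 CPM. Both of these markers were looked up after the values were seen. They belong to a list of 15 core markers, of which 5 were called lower in IL4c and 0 higher. The list summed to 32740, 33170 and 33680 CPM in the TG and 15190, 17920 and 20850 CPM in the IL4c SPARC libraries. Lyz2, the lysozyme gene and a member of the list, made up most of each TG sum, and its values are given below. In sum, the other members were not lower in IL4c than in TG.

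With SPARC in all wells, 3196 of 15232 tested genes differed between the injections by edgeR at an adjusted p under 0.05, which is 21% of those tested. Of these, 1664 (10.9%) were higher and 1532 (10.1%) were lower in IL4c macrophages, and 465 of the higher (3.05% of those tested) and 234 of the lower genes (1.54%) differed by at least 4-fold. Libraries of the 2 injections did not overlap at 6307 genes (41.4%), with all IL4c values above all TG values at 3171 (20.8%) and below at 3136 (20.6%). The count of calls rested on the libraries: it was 1921 without TG SPARC library 2, 1862 without TG SPARC library 3, 1777 without IL4c SPARC library 1 and 1806 without IL4c SPARC library 2, and 5587 when both TG libraries numbered 1 were left out. Scaling by library totals alone gave 3197 calls, of which 43.5% were higher, against 52.1% in the main fit, and the median of all genes moved from -0.03 to -0.07 on the log2 scale. No gene called in the main fit changed sign under that scaling.

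IL-4 is known for a set of alternative activation genes. Of the 38 tested of 41 listed members, 11 were higher and 2 were lower in IL4c macrophages, against 10.9% and 10.1% of all tested genes, and the median difference was 0.67 on the log2 scale, against -0.03 over all genes. Without both TG libraries numbered 1, 19 were higher and 6 lower, and no member was lower without IL4c SPARC library 2 or the untreated IL4c library 1. The same list had 11 higher and 2 lower members in untreated wells. Chil3, which encodes the secreted chitinase-like protein Ym1, was at 29.4, 10.3 and 8.94 CPM in the TG SPARC libraries and at 26430, 23810 and 19160 CPM in the IL4c SPARC libraries. That is a log2 fold change of 10.48 ± 0.86 (SE; edgeR adjusted p = 0.00013), and the lowest IL4c library lay far above the highest TG library. Its near-identical neighbour Chil4, or Ym2, had 0 counts in all 3 TG SPARC libraries and 65.3, 53.9 and 77.9 CPM in IL4c, at least 741-fold higher than a floor of 3 counts per library. Since the 2 genes share long stretches of sequence, reads may have been split between them by the authors' counting, and their separate levels are uncertain. The likeness reaches into their promoters. The 250 bases before each start (RefSeq, GRCm38.p6, chromosome 3, minus strand, chr3:106167565-106167814 for Chil3 and chr3:106219480-106219729 for Chil4) are shown to let the pair be compared, with the longest run they share, 44 bases, in capitals.
Chil3: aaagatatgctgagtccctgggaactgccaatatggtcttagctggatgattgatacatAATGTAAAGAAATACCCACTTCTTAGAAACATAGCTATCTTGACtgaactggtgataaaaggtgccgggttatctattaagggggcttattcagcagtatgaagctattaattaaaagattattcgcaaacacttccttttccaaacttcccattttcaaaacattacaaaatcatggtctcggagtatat
Chil4: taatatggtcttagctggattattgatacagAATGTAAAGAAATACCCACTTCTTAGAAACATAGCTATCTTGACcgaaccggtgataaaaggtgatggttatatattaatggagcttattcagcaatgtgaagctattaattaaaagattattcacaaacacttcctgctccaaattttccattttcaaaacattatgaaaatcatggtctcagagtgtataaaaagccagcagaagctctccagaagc
In all, 194 of the 250 bases fell in aligned shared runs of at least 4 bases.

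Retnla, the secreted resistin-like protein also called FIZZ1, was at 40.3, 8.7 and 17.7 CPM with TG and at 1726, 3328 and 3045 CPM with IL4c (log2 fold change 6.92 ± 0.87, edgeR adjusted p = 0.000959). In untreated wells its difference was 6.91 ± 0.87, so the values with and without SPARC lay within a standard error of each other. Rnase2a, an eosinophil-associated ribonuclease gene, was at 0.426, 0.144 and 0.0588 CPM with TG and at 45.4, 54.7 and 142 CPM with IL4c (8.58 ± 0.96, edgeR adjusted p = 0.00062). Slc7a2, which carries arginine into the cell, was at 1313, 384 and 363 CPM with TG and 4265, 3911 and 3638 CPM with IL4c. This is a difference of 2.52 ± 0.49 (edgeR adjusted p = 0.00707), and of 3.39 without both TG libraries numbered 1 (edgeR adjusted p = 0.000129). In untreated wells it was 4.69 ± 0.55. The change in the Slc7a2 difference did not pass the test, with or without libraries of the same number treated as a block. Its relative Slc7a1 rose by 1.81 ± 0.25 (edgeR adjusted p = 0.00147). The promoter of Retnla is shown because binding of STAT6 at this gene is well known. It is printed for the 250 bases before its start (RefSeq, GRCm38.p6, plus strand, chr16:48842359-48842608), with letters of the STAT6 type (TTC and GAA with any 4 bases between them) and of the PU.1 type (GAGGAAG or its complement) in capitals.
Retnla: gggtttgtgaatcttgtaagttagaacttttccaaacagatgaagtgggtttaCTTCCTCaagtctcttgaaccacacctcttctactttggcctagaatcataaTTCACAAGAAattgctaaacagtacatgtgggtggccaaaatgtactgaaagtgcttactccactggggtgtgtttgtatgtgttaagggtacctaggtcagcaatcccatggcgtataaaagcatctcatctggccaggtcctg
The match to the STAT6 type starts 145 bases before the start site and the match to the PU.1 type 197 bases before it, and they do not overlap. Searched on both strands from 250 bases before to 50 after the start, the STAT6 type was in 8.01% of 27025 promoters, in 6.61% of the 10240 tested genes with a promoter in the table, and in 7 of the 27 listed alternative activation genes with one (25.9%). It was also in 9 of 37 interferon-stimulated genes with a promoter (24.3%). The PU.1 type was in 15.4% of all promoters, 16.4% of tested genes with one and 7 of the same 27 alternative activation genes (25.9%). A match describes letters and not a bound site.

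Arg1, the arginase that is the most used single marker of alternative activation, behaved otherwise. With SPARC it was at 1430, 1267 and 1085 CPM in TG and 2968, 3121 and 1641 CPM in IL4c libraries, which did not overlap but differed by 1.03 ± 0.44 on the log2 scale without passing the test (edgeR adjusted p = 0.118). In untreated wells the TG libraries held 107, 311 and 227 CPM and the IL4c libraries 6841, 5721 and 2692 CPM, a difference of 4.56 ± 0.50 (edgeR adjusted p = 0.00073). The change in the difference, -3.53 in the main fit (edgeR adjusted p = 0.147), was -3.59 ± 0.46 with libraries of the same number treated as a block (edgeR adjusted p = 0.0225). TG values were higher with SPARC in all 3 numbers and IL4c values lower in all 3. Mrc1, the mannose receptor CD206, overlapped between the groups, at 37.5, 63.1 and 77.8 CPM in TG and 25.7, 18.2 and 145 CPM in IL4c, and IL4c library 3 alone was high. Its difference of 0.08 ± 0.82 (edgeR adjusted p = 0.956) turned negative without TG SPARC library 1 (-0.18) and without IL4c SPARC library 3 (-1.43); without both IL4c libraries numbered 3 the same -1.43 passed the test (edgeR adjusted p = 0.0432).

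Among C-type lectin receptors, which bind sugars, Mgl2, or CD301b, was at 0.274, 0.316 and 0.294 CPM with TG and at 88.2, 118 and 455 CPM with IL4c (9.53 ± 1.09, edgeR adjusted p = 0.000658). In untreated wells the TG libraries held 1.86, 1.04 and 1.5 CPM and the IL4c libraries 21.1, 16 and 88 CPM (4.82 ± 0.86, edgeR adjusted p = 0.00565). The 4.72 ± 0.34 between these differences passed the test with the number block (edgeR adjusted p = 0.00588), and not in the main fit (edgeR adjusted p = 0.23). Clec10a, or CD301a, was at 3.35, 4.25 and 4.5 CPM with TG and 20.1, 16.2 and 21.3 CPM with IL4c (2.25 ± 0.35, edgeR adjusted p = 0.00233), while untreated it stood at 19.9 to 55.1 CPM in all 6 libraries. Cd209d, a DC-SIGN-type lectin, had 0 counts in the TG SPARC libraries and 1.37, 0.888 and 1.59 CPM in IL4c, at least 14.5-fold higher than a floor of 3 counts per library. Mgl2 and Clec10a are close copies, as are the Cd209 genes, so the split of reads within each pair is uncertain. Of all 22 tested C-type lectin receptors, 4 were higher and 2 lower, against 10.9% and 10.1% of all tested genes. Without both TG libraries numbered 1, 7 were higher and 6 lower, and 6 were lower without IL4c SPARC library 3. The lower calls fell to 0 without TG SPARC library 2 or 3 or IL4c SPARC library 1 or 2.

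In the chain that reads IL-4, neither the receptor's binding chain nor the transcription factor passed the test. Il4ra, the receptor's binding chain, overlapped between groups at 182 to 324 CPM (0.13 ± 0.32, edgeR adjusted p = 0.808), with a sign that turned without IL4c SPARC library 2 (-0.05). Stat6 stood at 207 to 249 CPM in TG and 236 to 304 CPM in IL4c SPARC libraries (0.24 ± 0.13, edgeR adjusted p = 0.204). Irs1, an adaptor that the IL-4 receptor uses, was at 0.183, 0.172 and 0.206 CPM with TG and 4.98, 4.42 and 2.16 CPM with IL4c (4.34 ± 0.57, edgeR adjusted p = 0.00112). Socs1, an inhibitor of Janus kinases that interferons and IL-4 induce, went the other way, at 36.4, 25.7 and 16 CPM with TG and 5.7, 6.34 and 6.04 CPM with IL4c (-2.11 ± 0.36, edgeR adjusted p = 0.00362). Of 13 tested receptor chains and signalling genes, 2 were higher and 2 lower, against 10.9% and 10.1% of all tested genes. Without TG SPARC library 2 or 3, 1 was called in each direction.

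**Figure D1:**
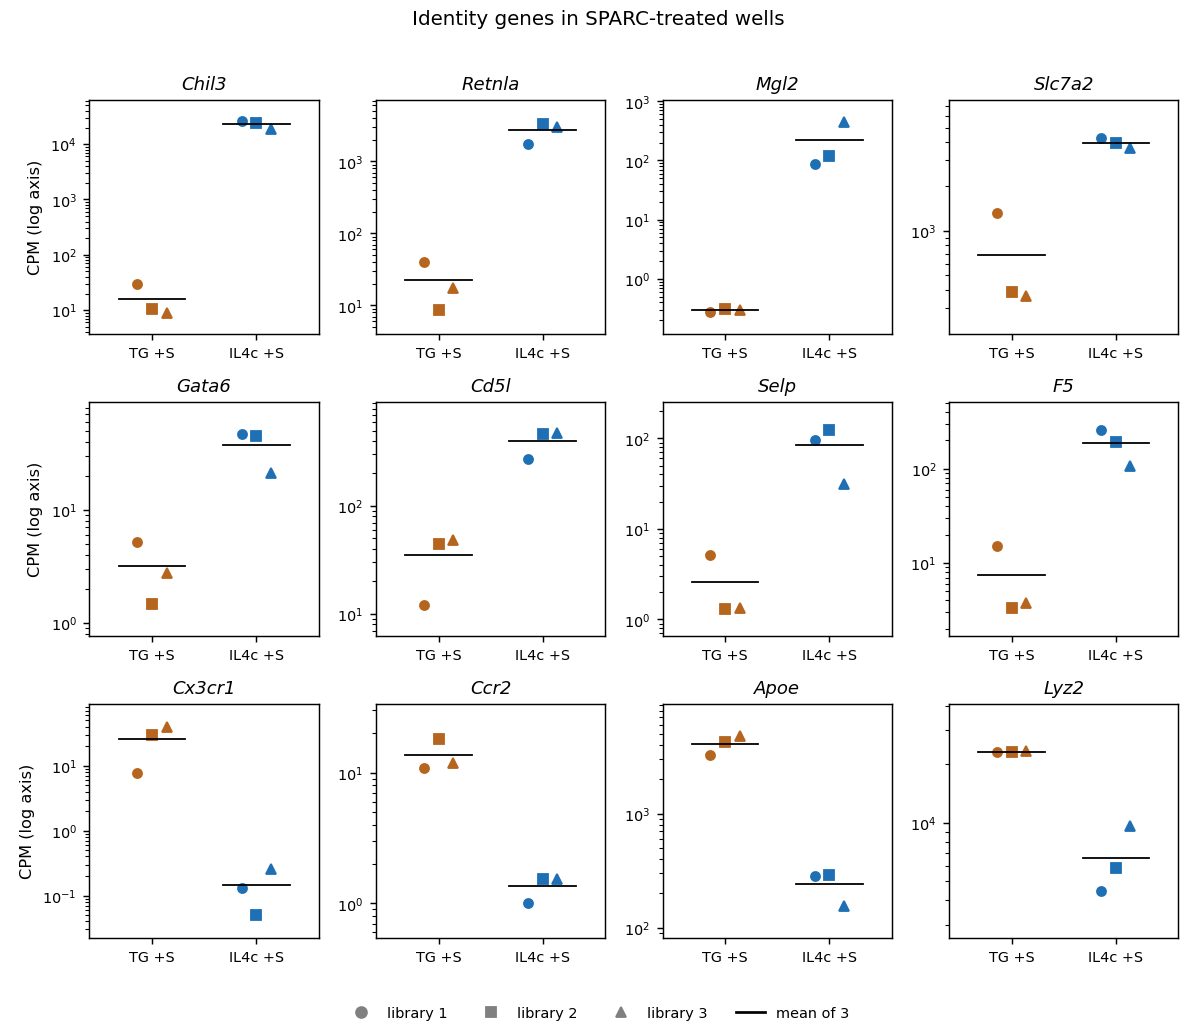
Level of 12 identity genes in each SPARC-treated library, in CPM on a log axis that starts at a different value in each panel; points are libraries, shapes give the library number and lines the mean of 3. The 3 IL4c libraries lie above the 3 TG libraries for Chil3, Retnla, Mgl2, Slc7a2, Gata6, Cd5l, Selp and F5 and below them for Cx3cr1, Ccr2, Apoe and Lyz2.

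Of 30 tested genes of large resident peritoneal macrophages, 10 rose and 1 fell in IL4c cells, against 10.9% and 10.1% of all tested genes, 19 were not called, and the median difference was 2.40 on the log2 scale. TG library 1 decided how many passed: 16 rose without the untreated TG library 1, 18 without TG SPARC library 1 and 22 (with 2 lower) without both. Gata6, the master transcription factor of these cells, was at 5.24, 1.47 and 2.79 CPM with TG and 47, 45 and 21.2 CPM with IL4c (3.58 ± 0.52, edgeR adjusted p = 0.00175). Rarb, a retinoic acid receptor upstream of it, was at 0.884, 1.49 and 1.59 CPM against 11.7, 12.4 and 9.08 CPM (3.06 ± 0.26, edgeR adjusted p = 0.000137). Cd5l, a secreted survival factor of tissue macrophages, was at 12, 44.2 and 48.2 CPM against 272, 461 and 477 CPM (3.53 ± 0.46, edgeR adjusted p = 0.00114), and here TG library 1 was the lowest of all. These 3 genes had differences of 2.75, 2.96 and 3.76 in untreated wells.

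Selp, the adhesion protein P-selectin, was at 5.09, 1.32 and 1.35 CPM with TG and 96, 125 and 31.5 CPM with IL4c (5.03 ± 1.04, edgeR adjusted p = 0.00882). F5, coagulation factor V, was at 15.3, 3.33 and 3.79 CPM against 257, 192 and 108 CPM (4.64 ± 1.00, edgeR adjusted p = 0.0106). For both of these genes and for Gata6, TG library 1 was the nearest of the TG libraries to the IL4c level and IL4c library 3 was the nearest to TG. Aspa, an aminoacylase gene that GATA6 controls, was at 0.609, 0.287 and 0.147 CPM against 17.5, 17.1 and 7.46 CPM (5.33 ± 0.81, edgeR adjusted p = 0.00212). Timd4, the phosphatidylserine receptor Tim-4 of long-lived resident cells, did not overlap between the groups, at 1.68, 1.41 and 1.53 CPM with TG and 16.2, 31.9 and 15.6 CPM with IL4c, but stayed just outside the threshold (3.79 ± 1.21, edgeR adjusted p = 0.0502). It passed without any 1 of the 3 untreated TG libraries (edgeR adjusted p = 0.0013 to 0.0322) and with DESeq2 (adjusted p = 0.00123). It also passed with a number effect shared across the injections (3.88, edgeR adjusted p = 0.032). Bhlhe41 was the member of this list that fell, by 1.98 ± 0.56 (edgeR adjusted p = 0.033). It was at 67.4, 277 and 277 CPM against 54.5, 35.1 and 68.4 CPM, with TG library 1 inside the IL4c range. Its call was lost without TG SPARC library 2 or 3 or any IL4c SPARC library (edgeR adjusted p = 0.0586 to 0.118), and it was singled out after its values were seen. In sum the list reached 49530 CPM in TG SPARC library 1, 12240 and 14830 CPM in TG libraries 2 and 3, and 55160, 55620 and 35900 CPM in the IL4c libraries. Saa3, an acute-phase gene in the list, makes up 33210 CPM of the first of these sums and overlapped between the groups.

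Several monocyte genes pointed the opposite way. Cx3cr1, the fractalkine receptor, was at 7.86, 29.7 and 39.7 CPM with TG and 0.132, 0.0493 and 0.257 CPM with IL4c (-7.44 ± 0.94, edgeR adjusted p = 0.001). A fit by limma-voom with the correlation of same-numbered libraries did not call it (-7.32, limma adjusted p = 0.112). Ccr2, the receptor that draws monocytes out of bone marrow, was at 10.8, 18 and 11.8 CPM against 1, 1.53 and 1.54 CPM (-3.32 ± 0.40, edgeR adjusted p = 0.0009). Ly6c2, the marker of classical monocytes, was at 189, 227 and 197 CPM with TG and 0.607, 1.95 and 9.05 CPM with IL4c (-5.72 ± 1.29, edgeR adjusted p = 0.0127), a call that was lost without IL4c SPARC library 2 (edgeR adjusted p = 0.0588). It has a close copy, Ly6c1, so its reads may be shared. In untreated wells Ly6c2 was at 14.2, 0.991 and 0.499 CPM with TG, so that these cells held more of it with SPARC in every number. Of the 25 tested monocyte-derived and small macrophage genes, 6 fell and 2 rose, against 10.1% and 10.9% of all tested genes. Their median difference was -1.07. The 2 that rose were Chil3 and Lyve1, a receptor for hyaluronan that tissue macrophages near vessels carry. Leaving out IL4c SPARC library 2 took the 6 down to 2, and leaving out both TG libraries numbered 1 brought them to 11. The groups also did not overlap for the actin-binding protein gene Coro1a, at 215, 197 and 189 CPM against 15.6, 16.6 and 15 CPM, the smallest adjusted p among the genes named here (-3.67 ± 0.23, edgeR adjusted p = 3.97e-05).

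General macrophage genes were not equal between the 2 populations. None of the 15 tested core markers rose and 5 fell, against 10.9% and 10.1% of all tested genes, at a median difference of -0.30. Without both TG libraries numbered 1, 3 rose and 7 fell, and 3 rose without the untreated one alone. Lyz2, the lysozyme gene and among the most abundant transcripts, was at 23150, 22970 and 23370 CPM with TG and 4444, 5832 and 9577 CPM with IL4c (-1.81 ± 0.35, edgeR adjusted p = 0.00637). In untreated wells it overlapped, at 27860, 16990 and 17620 CPM against 11680, 16100 and 20370 CPM. Every IL4c number fell with SPARC, and the -1.51 ± 0.25 between the 2 injection differences passed with the number block (edgeR adjusted p = 0.0328; 0.32 in the main fit). Its copy Lyz1 may take some of its reads. Maf, a transcription factor of tissue macrophages, was at 228, 255 and 262 CPM against 88.5, 108 and 97 CPM (-1.34 ± 0.22, edgeR adjusted p = 0.00289). Mertk, the receptor that takes up dying cells, was at 166, 206 and 218 CPM against 88.5, 133 and 112 CPM (-0.83 ± 0.17, edgeR adjusted p = 0.0092). Neither gene was called in untreated wells, where their differences were -0.07 and 0.24. Aif1, which encodes IBA1, fell by 4.27 ± 0.71 (edgeR adjusted p = 0.00342). Adgre1, or F4/80, stood at 1581, 1834 and 1881 CPM with TG and 2154, 2641 and 3362 CPM with IL4c, which did not overlap and did not pass (0.62 ± 0.27, edgeR adjusted p = 0.122); it passed without the untreated TG library 1 (edgeR adjusted p = 0.0292). Fcgr1, the high-affinity IgG receptor CD64, overlapped with SPARC at 218, 365 and 306 CPM against 108, 268 and 101 CPM, whereas untreated it was at 103, 186 and 126 CPM against 5.84, 12 and 6.92 CPM. The change of 3.07 ± 0.17 in its difference passed with the number block (edgeR adjusted p = 0.00114; 0.159 in the main fit). Its difference in SPARC wells was -0.90 ± 0.42 in the main fit (edgeR adjusted p = 0.152). With a number effect shared across the injections it was -1.01 (edgeR adjusted p = 0.00629), though nothing links the numbers across injections. It also passed without IL4c SPARC library 2 (edgeR adjusted p = 0.0331).

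Among secreted and transport genes with the widest differences, Aqp9, a channel for water and glycerol, was at 4.97, 2.47 and 1.59 CPM against 203, 147 and 114 CPM (5.69 ± 0.49, edgeR adjusted p = 0.000144). Ackr3, a receptor that removes the chemokine CXCL12, was at 0.457, 0.546 and 0.441 CPM against 86, 71.6 and 12.1 CPM (6.87 ± 1.06, edgeR adjusted p = 0.00229). It was not called by limma-voom without or with the correlation of same-numbered libraries (limma adjusted p = 0.0907 and 0.0528). Saa1, an acute-phase apolipoprotein of blood lipoproteins, was at 17.8, 0.948 and 2 CPM against 446, 750 and 120 CPM (5.99 ± 1.23, edgeR adjusted p = 0.00871), with under 3 CPM in all untreated libraries. Thbs4, a matrix glycoprotein of the thrombospondin family, was at 1.19, 0.23 and 0.353 CPM against 32.9, 50.6 and 20.5 CPM (5.88 ± 0.82, edgeR adjusted p = 0.0015), and no untreated library reached 0.4 CPM. The 4.83 ± 0.77 by which its difference grew passed with the number block (edgeR adjusted p = 0.032; 0.252 in the main fit). Of 18 tested coagulation and fibrinolysis genes, 6 rose and 2 fell, against 10.9% and 10.1% of all tested genes. Without IL4c SPARC library 2, 3 rose and 1 fell.

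Apoe, the apolipoprotein that carries cholesterol out of macrophages, showed the opposite, at 3277, 4242 and 4799 CPM with TG and 286, 288 and 154 CPM with IL4c (-4.08 ± 0.41, edgeR adjusted p = 0.000348). Emb, an adhesion protein that partners lactate carriers, was at 249, 281 and 246 CPM against 7.78, 6.98 and 36.6 CPM (-3.92 ± 0.79, edgeR adjusted p = 0.00818). The change in its difference with SPARC was -1.48 ± 0.11 on the log2 scale, which the number block called (edgeR adjusted p = 0.00588; 0.698 in the main fit).

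Cholesterol synthesis was the gene group that differed in the largest share of members among the 42 lists looked at. Cells make cholesterol from acetyl-CoA through a long chain of enzymes, and the transcription factor SREBP2, held back by INSIG1 when sterols are plentiful, drives nearly all of them and the LDL receptor together. With SPARC, 21 of 24 tested genes of the list were lower in IL4c and none were higher, at a median difference of -1.30 on the log2 scale, and leaving out each library in turn left 19 to 21 of them lower; 1 rose without the untreated TG library 1. In untreated wells 11 were lower and the median was -0.49. Hmgcs1, a synthase early in the chain, was at 79.2, 90.1 and 98.2 CPM against 33.1, 30.9 and 34.3 CPM (-1.44 ± 0.09, edgeR adjusted p = 4.84e-05). Idi1, which makes the isoprene unit that allows chains to be built, was at 51.9, 41.1 and 42.2 CPM against 6.8, 5.58 and 6.41 CPM (-2.85 ± 0.23, edgeR adjusted p = 0.00013). Msmo1, a sterol demethylation enzyme, was at 60.5, 77 and 77.4 CPM against 29.2, 27.7 and 30.2 CPM (-1.30 ± 0.11, edgeR adjusted p = 0.000137). Libraries of the 2 groups were tight and clearly apart for these 3 enzymes.

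**Figure D2:**
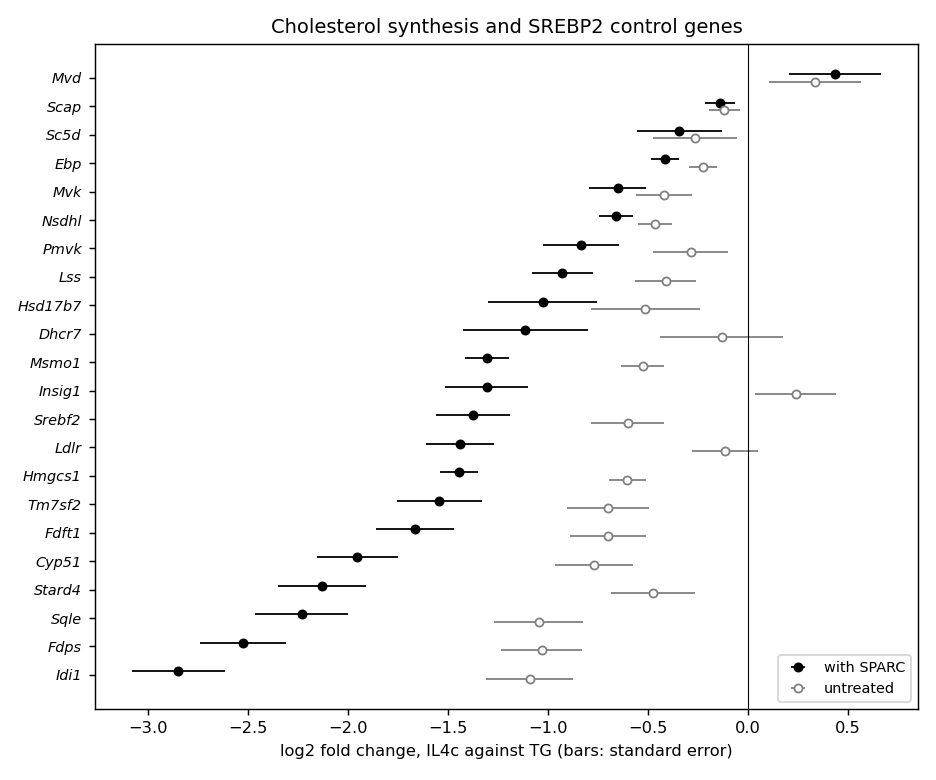
Log2 fold change of IL4c against TG for 22 of the 24 tested genes of cholesterol synthesis and its control, with SPARC (filled) and untreated (open); bars are standard errors of the fit over 3 libraries per group. Filled points lie left of the open ones for 21 of the 22 genes plotted, and Mvd is the 1 gene to the right of 0 with SPARC.

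For this group the injection difference was also wider with SPARC than without. With the number block, 11 of the 24 differences became more negative and none more positive, against 1.6% and 1.5% of all tested genes, and the median change was -0.81; edgeR without the block called none of them. Idi1 changed by -1.79 ± 0.20 (edgeR adjusted p = 0.0149 with the block, 0.147 without) and Hmgcs1 by -0.84 ± 0.12 (edgeR adjusted p = 0.0272 and 0.147). In TG cells Idi1 was at 72, 39.5 and 44.3 CPM untreated and 51.9, 41.1 and 42.2 CPM with SPARC; in IL4c cells it went from 26.4, 26.8 and 20.1 CPM to 6.8, 5.58 and 6.41 CPM. Targets of the liver X receptors, which sense sterols and promote their export, were called in both directions. Of 16 tested, 3 rose and 1 fell, the 1 being Apoe, against 10.9% and 10.1% of all tested genes. Without the untreated TG library 1 or IL4c SPARC library 3, 5 rose, and 8 rose without both TG libraries numbered 1. With the number block, the change of the difference with SPARC passed towards IL4c for 3 of the 16 and towards TG for none, at a median of 0.52. Mylip, a ligase that degrades the LDL receptor, was at 26.1, 16.1 and 19.2 CPM with TG and 54.9, 65.6 and 47.7 CPM with IL4c (1.46 ± 0.25, edgeR adjusted p = 0.00406), and its difference grew by 1.43 ± 0.15 with SPARC (edgeR adjusted p = 0.0137 with the block, 0.19 without). Arl4c, a small GTPase gene of the same list, rose by 1.57 ± 0.26 (edgeR adjusted p = 0.00303).

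Interferon-stimulated genes, the antiviral programme that type I interferon turns on through its receptor and Janus kinases, were tilted to IL4c cells with SPARC. Of 51 tested, 12 were higher and none lower, against 10.9% and 10.1% of all tested genes, with a median of 0.41, whereas untreated 2 were higher and 8 lower, with a median of -0.42. The 12 became 7 without TG SPARC library 2, 6 without TG SPARC library 3 and 6 without IL4c SPARC library 2, close to the share of all tested genes, and 18 without both TG libraries numbered 1. In sum the members reached 11020, 12390 and 11250 CPM in TG and 13350, 18980 and 14880 CPM in IL4c SPARC libraries, against 1812 to 3314 CPM in all untreated ones. With the number block, 12 of the 51 differences shifted towards IL4c and none towards TG, at a median of 0.72; edgeR without the block called none of them.

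Isg15, a ubiquitin-like protein, was at 86.8, 81.5 and 74.3 CPM with TG and 140, 190 and 181 CPM with IL4c (1.07 ± 0.20, edgeR adjusted p = 0.00536); untreated, all 6 libraries lay between 2.51 and 5.3 CPM. Usp18, which removes ISG15 and damps the interferon receptor, was at 88.3, 73.4 and 70.1 CPM against 205, 278 and 229 CPM (1.62 ± 0.24, edgeR adjusted p = 0.00178). Ifi44, a GTP-binding protein of this response, was at 22.4, 14.2 and 16.6 CPM against 115, 194 and 161 CPM (3.15 ± 0.49, edgeR adjusted p = 0.00229). Phf11d, an interferon-induced nuclear protein gene, rose by 1.43 ± 0.16 (edgeR adjusted p = 0.00063) and Oasl1, which limits translation of Irf7, by 1.48 ± 0.25 (edgeR adjusted p = 0.00341). Irf7, the transcription factor that amplifies interferon production, was at 880, 769 and 823 CPM against 1519, 1983 and 1495 CPM (1.02 ± 0.30, edgeR adjusted p = 0.04). Its call was lost without any 1 of the 3 TG SPARC libraries, the 3 untreated IL4c libraries or IL4c SPARC libraries 1 and 2 (edgeR adjusted p = 0.0546 to 0.128), and with limma-voom (limma adjusted p = 0.141).

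Ifit1, which binds foreign RNA caps, changed sides. With SPARC it was at 154, 169 and 144 CPM in TG and 269, 378 and 332 CPM in IL4c libraries (1.07 ± 0.28, edgeR adjusted p = 0.0244), and untreated at 9.43, 8.81 and 3.68 CPM against 2.92, 3.39 and 3.59 CPM (-1.15 ± 0.30, edgeR adjusted p = 0.0243). The call with SPARC was lost without TG SPARC library 2 or 3 or IL4c SPARC library 2 (edgeR adjusted p = 0.052 to 0.0841). The shift of 2.12 ± 0.32 passed with the number block (edgeR adjusted p = 0.0328; 0.147 in the main fit). Promoters of Isg15 and Ifit1 are shown for the 250 bases before the start (RefSeq, GRCm38.p6), since both hold interferon response elements; the Isg15 window is on the minus strand at chr4:156200819-156201068 and the Ifit1 window on the plus strand at chr19:34640639-34640888. Capitals mark letters of the interferon response element type, GAAA and GAAA with any 2 bases between them, or its complement.
Isg15: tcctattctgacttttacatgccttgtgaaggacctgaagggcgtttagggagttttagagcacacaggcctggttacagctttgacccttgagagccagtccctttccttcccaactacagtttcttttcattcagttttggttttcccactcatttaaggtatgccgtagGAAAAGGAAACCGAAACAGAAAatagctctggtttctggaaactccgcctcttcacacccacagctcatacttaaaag
Ifit1: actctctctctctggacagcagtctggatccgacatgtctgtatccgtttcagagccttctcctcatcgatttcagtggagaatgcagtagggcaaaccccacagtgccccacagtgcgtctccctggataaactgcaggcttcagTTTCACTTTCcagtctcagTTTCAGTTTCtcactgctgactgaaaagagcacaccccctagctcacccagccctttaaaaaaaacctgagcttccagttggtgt
In Isg15 the capitals are 3 overlapping matches, starting 78, 72 and 66 bases before the start site; in Ifit1 they start 104 and 85 bases before it. Searched on both strands from 250 bases before to 50 after the start, the letters were in 3.99% of 27025 promoters, in 21 of the 37 listed interferon-stimulated genes with a promoter in the table (56.8%) and in 5 of 17 class I presentation genes (29.4%).

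Genes of antigen presentation by MHC class I are also raised by interferon. Of 21 tested, 5 rose and none fell with SPARC, while in untreated wells none rose and 7 fell. Among all tested genes the shares higher and lower were 10.9% and 10.1% with SPARC, and 10.2% and 10.8% untreated. Only 3 rose when TG SPARC library 2 or 3 or IL4c SPARC library 1 or 2 was left out. H2-Q6, a class Ib gene of the Qa-2 group, was at 151, 73.4 and 67.2 CPM with TG and 454, 585 and 411 CPM with IL4c (2.31 ± 0.42, edgeR adjusted p = 0.00513). H2-T22, which gamma-delta T cells recognise, was at 301, 266 and 230 CPM against 517, 732 and 566 CPM (1.19 ± 0.19, edgeR adjusted p = 0.00253), and H2-Q4 at 217, 181 and 179 CPM against 450, 487 and 417 CPM (1.23 ± 0.21, edgeR adjusted p = 0.00398). For H2-Q6 the injection difference shifted by 3.45 ± 0.15 with SPARC (edgeR adjusted p = 0.000717 with the block, 0.147 without). In untreated wells it was at 42.9, 19.6 and 14.5 CPM with TG and 12.1, 11.7 and 9.74 CPM with IL4c. Class I genes are near copies of each other, H2-Q6 and H2-Q7 above all, so their separate values are uncertain. With the block, 6 of the 21 class I differences shifted towards IL4c and none towards TG.

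Of 24 tested GTPases and targets of interferon gamma, 1 rose and 4 fell with SPARC, which is 20.8% against 21% of all tested genes, at a median of -0.68; 9 fell with SPARC without the untreated TG library 3. In untreated wells 1 rose and 8 fell, at a median of -1.39. With the number block, the change of the difference with SPARC passed for 1 gene in each direction, at a median of 0.30. Irf8, a transcription factor of monocytes and of this response, was at 146, 308 and 229 CPM with TG and 38.3, 50.1 and 64.2 CPM with IL4c (-2.16 ± 0.26, edgeR adjusted p = 0.000903). Its untreated difference was -0.54 ± 0.25, and the -1.59 ± 0.26 between the 2 passed with the block (edgeR adjusted p = 0.0354; 0.173 in the main fit). Serpina3g, a protease inhibitor, was at 15.3, 61.7 and 26.6 CPM against 2.11, 2.79 and 2.01 CPM (-3.91 ± 0.64, edgeR adjusted p = 0.00298). Ido1, the tryptophan-degrading enzyme, was the member that rose, at 0.335, 0.316 and 0.206 CPM against 4.17, 3.7 and 2.08 CPM (3.52 ± 0.53, edgeR adjusted p = 0.00205). Among 17 tested class II presentation genes, 1 rose and none fell: Ifi30, a lysosomal thiol reductase, at 279, 230 and 254 CPM against 469, 548 and 491 CPM (0.98 ± 0.21, edgeR adjusted p = 0.0105). Cd74, the class II invariant chain, overlapped between the groups, at 1977, 641 and 854 CPM with TG and 738, 669 and 584 CPM with IL4c; TG library 1 is the one in which B cell markers were also high. Without both TG libraries numbered 1, 4 class II genes rose and 6 fell.

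**Figure D3:**
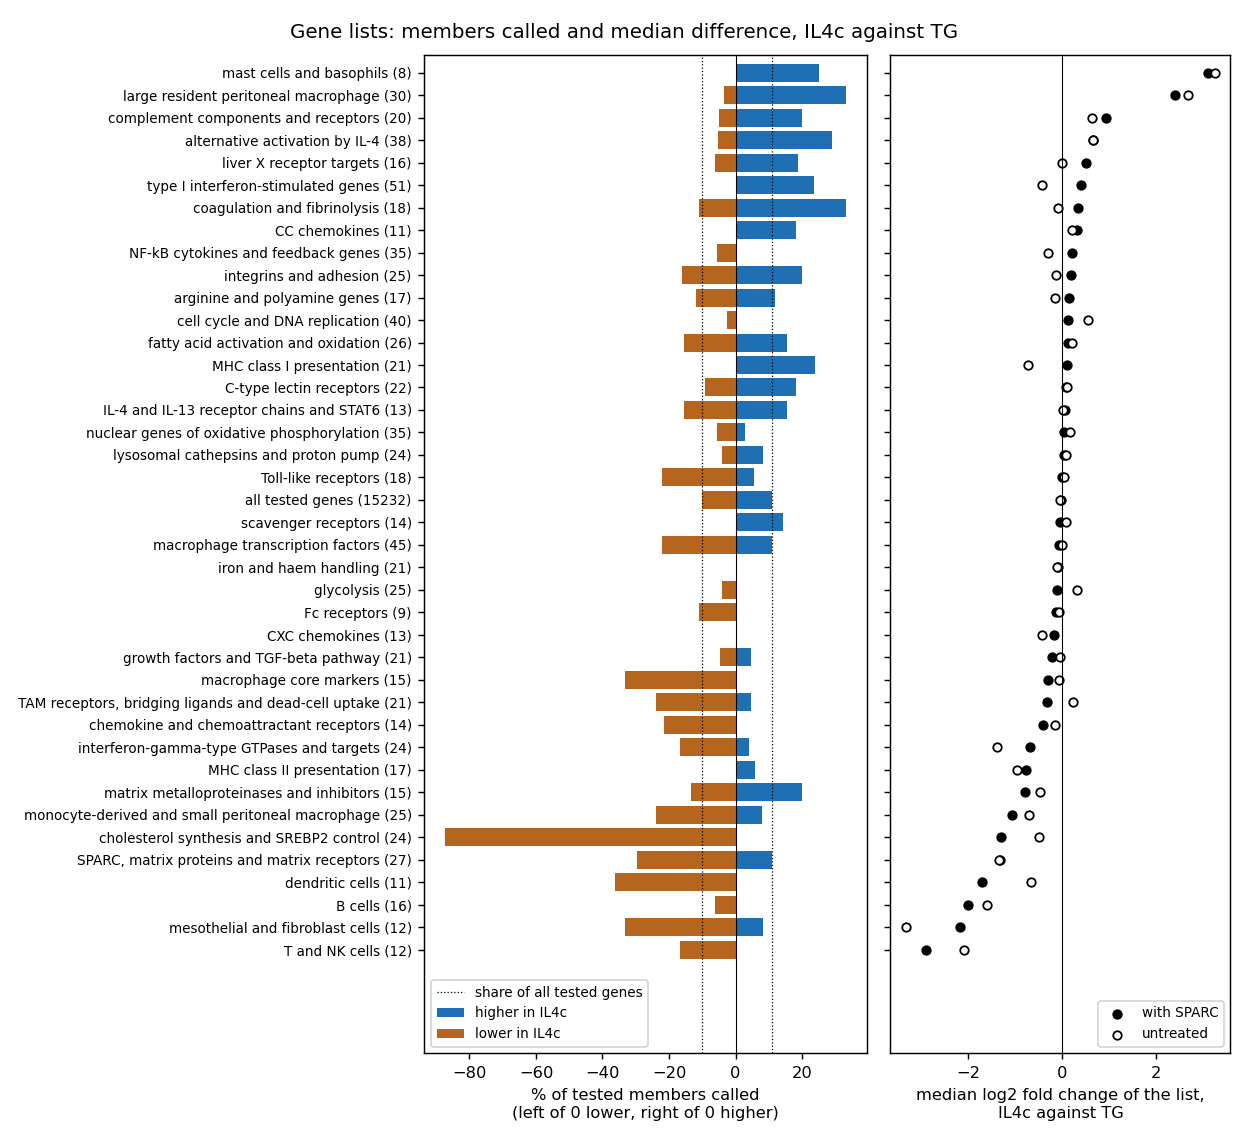
Left, percent of the tested members of each gene list (number in brackets) called higher (right of 0) or lower (left of 0) in IL4c with SPARC; dotted lines give the share of all tested genes called higher (10.9%) and lower (10.1%). Right, median log2 fold change of each list with SPARC (filled) and untreated (open); the cholesterol list reaches 87.5% lower.

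Inflammatory cytokine genes gave few calls, against 10.9% higher and 10.1% lower among all tested genes. Of 35 tested NF-kB cytokines and feedback genes, none rose and 2 fell, and 9 rose and 3 fell without both TG libraries numbered 1. Tnf was at 26.3, 35.1 and 28.2 CPM with TG and 10.2, 7.3 and 20.7 CPM with IL4c, which did not overlap and fell short of the threshold (-1.23 ± 0.42, edgeR adjusted p = 0.061). It passed without IL4c SPARC library 3 or the untreated IL4c library 1 (edgeR adjusted p = 0.0176 and 0.0428), and with DESeq2 and limma-voom (adjusted p = 0.0189 and 0.0147). Il1b, which encodes interleukin-1 beta, was at 238, 45.7 and 45.8 CPM against 26.2, 23.2 and 7.05 CPM (-2.55 ± 0.95, edgeR adjusted p = 0.0824). It passed with a number effect shared across the injections (-2.26, edgeR adjusted p = 0.0486). Without both TG libraries numbered 1 its difference was -1.29 (edgeR adjusted p = 0.241). Il6 overlapped at 3.23, 0.0862 and 0.353 CPM against 6.07, 4.61 and 2.98 CPM (1.90 ± 1.10, edgeR adjusted p = 0.24) and differed by 4.35 without TG SPARC library 1 (edgeR adjusted p = 0.0194). Cd83, a surface protein of activated antigen-presenting cells, fell by 1.88 ± 0.36 (edgeR adjusted p = 0.00668). Ccl7, a chemokine that draws monocytes through CCR2, was at 19.7, 8.01 and 6.53 CPM with TG and 54, 73.3 and 178 CPM with IL4c (3.16 ± 0.57, edgeR adjusted p = 0.00478). All 6 untreated libraries held 1.62 to 4.48 CPM of it.

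Toll-like receptors, which sense microbial molecules, had 1 higher and 4 lower among 18 tested, against 10.9% and 10.1% of all tested genes. Without IL4c SPARC library 1, 2 were higher and 2 lower. Tlr4, the receptor for bacterial lipopolysaccharide, differed by 0.25 ± 0.12 and did not pass (edgeR adjusted p = 0.151), at 122 to 156 CPM against 157 to 173 CPM. Tlr8, a sensor of RNA fragments, was at 146, 236 and 208 CPM against 73.3, 107 and 103 CPM (-1.06 ± 0.21, edgeR adjusted p = 0.0066). Tlr1, a partner of TLR2, was at 90, 70.1 and 74.7 CPM against 15.8, 22.7 and 38.8 CPM (-1.60 ± 0.35, edgeR adjusted p = 0.011).

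Matrix genes and their receptors were mixed, with 3 of 27 tested higher and 8 lower, against 10.9% and 10.1% of all tested genes. Sparc itself was at 4.24, 33.3 and 36.1 CPM with TG and 0.607, 0.888 and 2.11 CPM with IL4c (-4.35 ± 1.22, edgeR adjusted p = 0.0319). The call was lost without TG SPARC library 2 or 3 or any IL4c SPARC library (edgeR adjusted p = 0.0558 to 0.116), and with limma-voom (limma adjusted p = 0.227). Col1a1, the main chain of type I collagen, was at 11.6, 74.5 and 86.6 CPM against 0.396, 1.33 and 2.19 CPM (-5.46 ± 1.21, edgeR adjusted p = 0.0116). It lost its call without IL4c SPARC library 1 or 2 (edgeR adjusted p = 0.0529 and 0.0514) and with limma-voom (limma adjusted p = 0.0982). Both transcripts are typical of fibroblasts and mesothelial cells. The 12 tested markers of those cells summed to 37.2, 220 and 254 CPM in TG SPARC libraries 1, 2 and 3 and to 63.9, 117 and 111 CPM in IL4c. Of these markers, 4 fell and 1 rose (none fell without IL4c SPARC library 1 or 2). The 1 that rose was Dcn, whose values are given below and which made up most of each IL4c sum. In sum, the other markers were lower in every IL4c library than in any TG SPARC library. The part of these cells in the result was not tested. The 8 lower matrix genes became 2 without TG SPARC library 2, 2 without TG SPARC library 3, 5 without the untreated IL4c library 2, 1 without IL4c SPARC library 1, 0 without IL4c SPARC library 2 and 1 without IL4c SPARC library 3. Among genes of cell anchoring, Itgb1, the shared beta chain of collagen and fibronectin receptors, was at 669, 692 and 686 CPM with TG and 1218, 1353 and 1182 CPM with IL4c (0.87 ± 0.17, edgeR adjusted p = 0.00652). Lamc1, a laminin chain, was at 149, 95.8 and 99 CPM against 286, 293 and 198 CPM (1.18 ± 0.25, edgeR adjusted p = 0.00994). Itgal, the leukocyte integrin chain CD11a, was at 309, 318 and 356 CPM against 74.8, 99.7 and 115 CPM (-1.76 ± 0.29, edgeR adjusted p = 0.00292). In untreated wells its gap was wider, at -3.40 ± 0.31, and the 1.62 ± 0.30 between the 2 passed with the block (edgeR adjusted p = 0.0444; 0.191 in the main fit).

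Among metabolic genes, fatty acid activation and oxidation had 4 of 26 tested higher and 4 lower, against 10.9% and 10.1% of all tested genes. Of these 26, 7 were higher without TG SPARC library 1, and 2 without TG SPARC library 2 or 3 or IL4c SPARC library 1. None were lower without TG SPARC library 2 or 3 or IL4c SPARC library 1 or 2. Glycolysis had 1 of 25 tested genes lower and none higher with SPARC, and 5 higher and 2 lower untreated. With the number block, 6 of the 25 differences shifted towards TG and none towards IL4c, at a median of -0.32. Of all tested genes, 1.6% and 1.5% did so, and edgeR without the block called none. Nuclear genes of oxidative phosphorylation had 1 of 35 higher and 2 lower. Leaving out 1 library gave 0 to 3 higher and 1 to 4 lower (3 higher without the untreated TG library 1, 4 lower without IL4c SPARC library 3). Acsl4, which activates arachidonic acid, was at 180, 169 and 166 CPM against 333, 330 and 344 CPM (0.97 ± 0.09, edgeR adjusted p = 0.000236). Ndufa4, a small subunit of the respiratory chain, was at 41.4, 57.4 and 53.6 CPM against 14.4, 11.4 and 17.5 CPM (-1.82 ± 0.18, edgeR adjusted p = 0.000264). Transcripts of the mitochondrial genome took 1.08% to 1.61% of counts in TG and 0.522% to 1.09% in IL4c SPARC libraries, against 1.42% to 2.42% in untreated ones. Of the 15 tested mitochondrial genes, 7 were lower and none higher with SPARC, at a median of -1.84. Among all tested genes 10.1% were lower and 10.9% higher with SPARC. Untreated, 0 of the mitochondrial genes were lower and 2 higher, at a median of 0.05. Cell cycle genes gave 1 lower and none higher of 40, with 4 lower without IL4c SPARC library 3. Mki67, the proliferation antigen Ki-67, overlapped at 114, 18.2 and 22.4 CPM with TG and 51.7, 51.2 and 112 CPM with IL4c (0.48 ± 0.78, edgeR adjusted p = 0.701), with TG library 1 and IL4c library 3 high. Without both TG libraries numbered 1 it differed by 1.81 (edgeR adjusted p = 0.0138).

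Markers of other cells were checked in the same way, against 10.9% higher and 10.1% lower among all tested genes. Dendritic cell genes had 4 of 11 tested lower, among them Flt3, a growth factor receptor of their precursors, at 9.69, 1.81 and 2.47 CPM with TG and 0.264, 0.173 and 0.0257 CPM with IL4c (-4.89 ± 1.00, edgeR adjusted p = 0.00848). Fscn1, an actin bundler, was at 87.7, 24.4 and 28.8 CPM against 3.11, 6.42 and 3.11 CPM (-3.48 ± 0.60, edgeR adjusted p = 0.00398). Their summed level was 651 to 695 CPM in TG and 247 to 370 CPM in IL4c. B cell genes had 1 of 16 lower, Cd22, which some macrophages also express, at 74.1, 87.7 and 85.4 CPM against 20.2, 18.6 and 21.2 CPM (-2.04 ± 0.17, edgeR adjusted p = 0.00013); this marker was level across the TG libraries although the summed B cell markers were not. T and NK cell genes had 2 of 12 lower, with 6 lower without the untreated TG library 1. Only 1 was lower without TG SPARC library 1 or any 1 of the IL4c SPARC libraries. Neutrophil genes had none of 5 called. Eosinophil genes had 1 of 5 higher, and none without any 1 of the 6 SPARC libraries, the untreated TG library 3 or the untreated IL4c library 2. Mast cell and basophil genes had 2 of 8 higher at summed levels of 4.71 to 17.4 CPM in IL4c and 1.76 to 7.74 CPM in TG. None of the 8 were called higher without TG SPARC library 2 or 3 or IL4c SPARC library 1. The part of these cells in the results was not tested.

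Differences seen in untreated wells were for the most part seen in the same direction with SPARC. Of the 397 genes at least 4-fold higher in untreated IL4c cells and called there (2.61% of those tested), 294 (74.1%) were called in the same direction with SPARC, and their median difference was 2.86 untreated and 2.55 with SPARC. Of the 218 at least 4-fold lower (1.43%), 122 (56%) were called again, with medians of -3.30 and -2.59. These genes were picked by their untreated difference, so the smaller medians with SPARC cannot show whether differences narrowed. Over all tested genes the median absolute log2 difference was 0.3255 with SPARC and 0.3243 untreated. Below 2-fold, 388 of 744 higher (52.2%) and 569 of 1211 lower genes (47%) were called again. Altogether 3197 genes (21%) were called untreated, 1737 in both comparisons in the same direction, 54.3% of each list, and 94.6% of those called untreated had the same sign with SPARC. Across the tested genes the 2 sets of differences had a Pearson r of 0.759 and a Spearman rho of 0.686, given as a description, since genes are not independent and same-numbered wells of an injection share their variation. Without both TG libraries numbered 1 the shared calls numbered 3416.

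**Figure D4:**
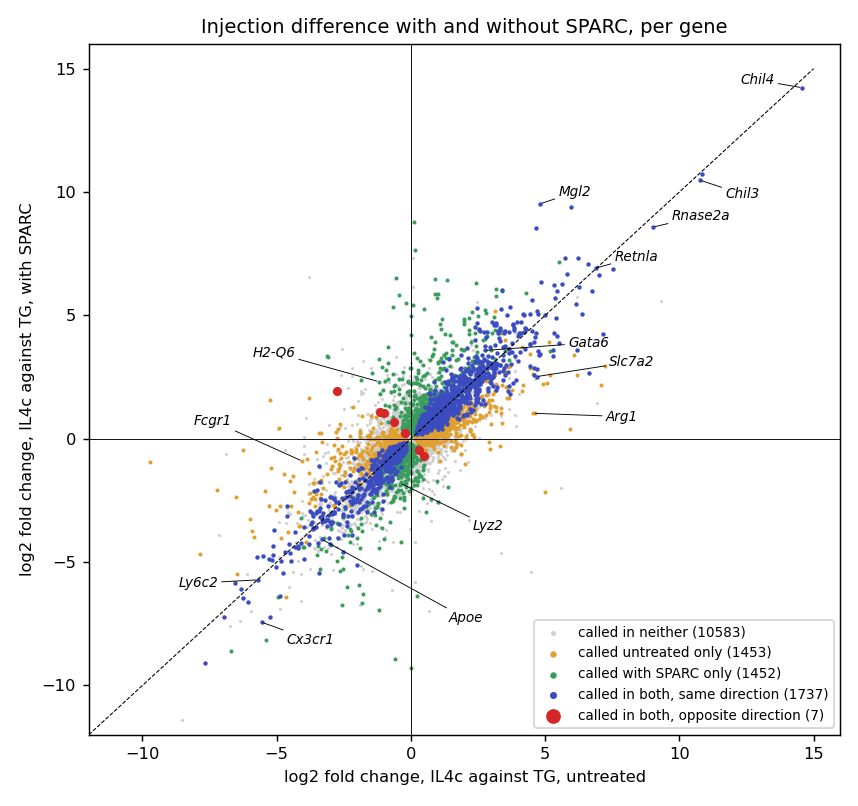
Log2 fold change of IL4c against TG in untreated wells (x axis) and with SPARC (y axis) for the 15232 tested genes, coloured by the comparison in which edgeR called them; the dashed line marks equal differences. Of these, 1737 genes were called in both in the same direction and 7 in opposite directions; Chil3, Rnase2a and Retnla lie near the dashed line, and Arg1 and Slc7a2 below it.

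Only 7 genes (0.046% of those tested) were called in both comparisons with opposite signs. Sort1, the sorting receptor sortilin, was at 182, 204 and 190 CPM with TG and 118, 98.8 and 133 CPM with IL4c in SPARC wells (-0.72 ± 0.11, edgeR adjusted p = 0.00205), and at 295, 282 and 288 CPM against 402, 417 and 379 CPM untreated (0.47 ± 0.11, edgeR adjusted p = 0.0152). Fam3c, a secreted cytokine-like protein gene, went from 0.29 ± 0.08 untreated to -0.45 ± 0.08 with SPARC (edgeR adjusted p = 0.0338 and 0.00566). In the other direction, from lower untreated to higher with SPARC, went Ifit1, Pdgfa, Xaf1, Arhgap27os1 and Mfap1b. Pdgfa, a growth factor chain, was at 15.9, 11.5 and 13.9 CPM against 27.4, 28.8 and 29.4 CPM with SPARC (1.05 ± 0.29, edgeR adjusted p = 0.0286). Its call was lost without TG SPARC library 2 or 3 or any IL4c SPARC library (edgeR adjusted p = 0.0628 to 0.0997). Xaf1, an interferon-induced partner of apoptosis inhibitors, lost its call without any TG SPARC library, untreated IL4c library 1 or 2 or IL4c SPARC library 2 (edgeR adjusted p = 0.0516 to 0.126), Arhgap27os1 without TG SPARC library 2 or 3 or IL4c SPARC library 1 or 2 (0.0648 to 0.0869), and Mfap1b without any of the 6 SPARC libraries (0.0596 to 0.121).

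Whether the injection difference itself changed with SPARC was tested as the difference of the 2 contrasts. edgeR called 0 of 15232 genes, with 1612 (10.6%) at an unadjusted p under 0.05; DESeq2 called 364 and limma-voom 0. Since libraries of the same number and injection varied together, the fit with that number as a block is given beside it, and it called 472 genes (3.1%), 228 towards IL4c and 244 towards TG. Leaving out both TG libraries numbered 1 gave 836 without a block, leaving out the untreated TG library 1 alone gave 278 and TG SPARC library 1 alone 84. The largest blocked shifts towards IL4c among genes of at least 10 CPM were those of Mgl2, H2-Q6, Dcn, Ms4a14 and Fcgr1, while Arg1, Nxpe5, Rasgrp3 and mt-Cytb were among the largest towards TG; Ms4a14, Nxpe5, Rasgrp3 and mt-Cytb were chosen after their values were seen. Dcn, the collagen-binding proteoglycan decorin, was at 4.39, 17.1 and 16.9 CPM with TG and 58.9, 108 and 97.1 CPM with IL4c in SPARC wells, against 1.49 to 20 CPM in all untreated libraries; its difference of 2.78 with SPARC (edgeR adjusted p = 0.0388) lost its call without any 1 of 9 libraries (0.0523 to 0.1). Its shift was 3.45 ± 0.55 (edgeR adjusted p = 0.038 with the block, 0.284 without). The mitochondrial gene mt-Cytb was at 1373, 665 and 648 CPM with TG and 148, 118 and 410 CPM with IL4c, against 1218 to 2026 CPM in the untreated libraries. Its call with SPARC was lost without IL4c SPARC library 1 or 2 (edgeR adjusted p = 0.0749 and 0.0687). Its shift was -2.14 ± 0.31 (edgeR adjusted p = 0.029 with the block, 0.327 without).

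**Figure D5:**
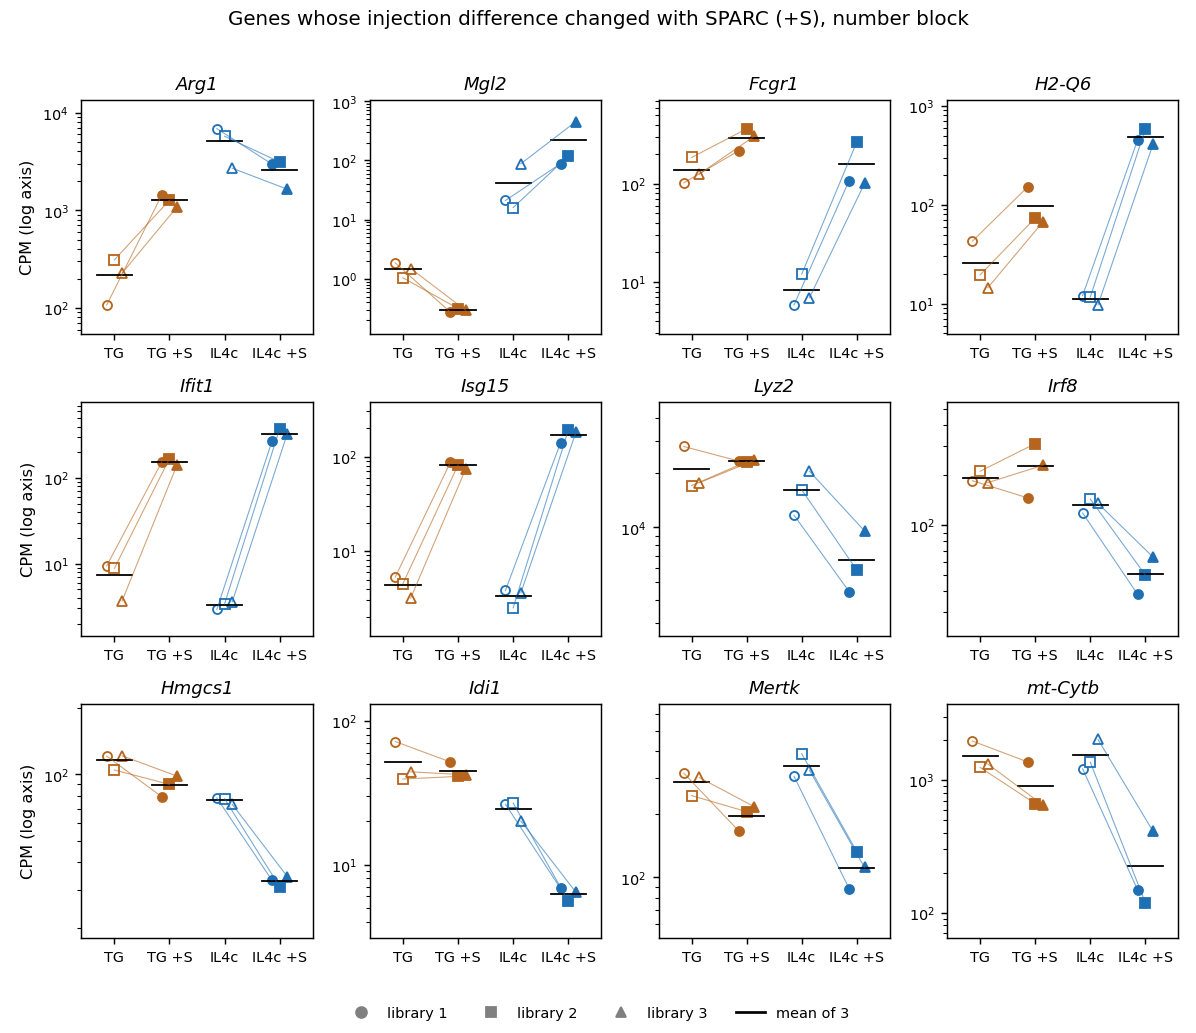
Level of 12 genes in all 12 libraries, in CPM on a log axis, for TG and IL4c without and with SPARC (+S); shapes give the library number, thin lines join libraries of the same number and injection, and bars are means of 3. With SPARC, Arg1 lies higher in TG and lower in IL4c libraries, and Isg15 and Ifit1 lie above their untreated level in all 6 libraries, most of all in IL4c.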

How the data were processed

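RNA of 12 libraries (4 groups of 3) was read as gene-level estimated counts. The authors demultiplexed reads with CASAVA and bcl2fastq 1.8.4, aligned them with STAR and estimated expected counts and FPKM values with RSEM, per the submitters' processing notes; build, annotation and strand setting: not given in the sources used here. RSEM divides reads among similar genes, which bears on close copies. Of the deposited expected counts, 7.97% were not whole, and all were rounded to whole numbers. The deposited FPKM values were used only in alternatives, as log2(FPKM + 1) or log2(FPKM + 0.1) with limma.

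Genes were kept by filterByExpr (minimum count 10), scaled by TMM and fitted with edgeR 4.0.16 (quasi-likelihood, robust, R 4.3.3) over all 12 libraries in 4 groups, with 8 residual degrees of freedom. Contrasts were IL4c against TG with SPARC, the same untreated, and their difference. P-values were adjusted by Benjamini-Hochberg over all tested genes, with a threshold of 0.05. CPM are TMM-scaled. Alternatives used limma 3.58.1, DESeq2 1.42.0, other scalings and filters, and fits with libraries left out. Folds against libraries at 0 used a floor of 3 counts per library, which covers counting error only.

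Same-numbered libraries of an injection varied together: their deviations from group means correlated at 0.342 to 0.735 in all 6 pairs. Pairs of different number within an injection gave -0.659 to 0.507, so the ranges overlap. TG untreated library 2 correlated at 0.599 with TG SPARC library 2 and at 0.507 with TG SPARC library 3. The numbers were treated as pairs within an injection, and the blocked results rest on that choice. Across injections the SPARC libraries of the same number correlated at -0.0432 to 0.138, and the main comparison was not paired. For the difference of contrasts, the number block pairs libraries within an injection. A single contrast between injections cannot be fitted with that block. Its alternative used a number effect shared across the injections, although nothing links the numbers there. Blocked values are given beside many of the results whose call they change.

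The libraries compared and the 42 gene lists were chosen with earlier results of these data known. Genes were named by rule: the largest changes of at least 10 CPM without overlap, up to 4 members of each list with the smallest p, opposite calls, the most abundant genes changed at least 4-fold, and a fixed set; others are said to be chosen after their values were seen. Some genes are not reported here.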

Additional observations from a re-analysis of the deposited data

Results flagged for a closer look

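The genes below differed between SPARC and untreated wells in their injection difference (IL4c minus TG, log2), by edgeR with same-numbered libraries of an injection as a block; edgeR without the block called 0 of all tested genes. Among receptors and secreted genes the shift was 4.72 for Mgl2, 3.07 for Fcgr1, 4.83 for Thbs4, 3.45 for Dcn, 1.71 for Aspa, -3.59 for Arg1, -1.51 for Lyz2, -1.08 for Mertk and -1.48 for Emb. Interferon-induced genes shifted by 1.44 (Isg15), 0.78 (Usp18), 1.03 (Phf11d), 2.12 (Ifit1) and 1.28 (Xaf1), and Irf8 by -1.59. Class I genes shifted by 3.45 (H2-Q6), 2.39 (H2-Q7), 1.31 (H2-T22) and 1.39 (H2-Q4), which are close copies of each other. Sterol genes shifted by -0.84 (Hmgcs1), -1.79 (Idi1) and -0.76 (Msmo1), and Mylip by 1.43. The remaining shifts were 1.62 for Itgal, -1.19 for Sort1, -0.74 for Fam3c, 3.33 for Ms4a14, -3.2 for Nxpe5, -2.96 for Rasgrp3 and -2.14 for mt-Cytb.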

How the results depend on the processing

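With SPARC, 3196 genes were called in the main fit. A test of at least a 2-fold change called 317, leaving out each library in turn gave 1777 to 4293, and leaving out both TG libraries numbered 1 gave 5587. Untreated, 3197 genes were called; the untreated libraries alone gave 1631, each library left out in turn 1376 to 4562, and without both TG libraries numbered 1 there were 6002. Calls shared in direction, 1737, became 1093 on log2(FPKM + 1) without a filter, 945 to 2371 with a library left out and 3416 without both TG libraries numbered 1. For the difference of the injection contrast, 0 genes were called in the main fit, 2 with library totals only, 2 without a low-count filter, 3 with at least 5 CPM in 3 libraries, 16 on log2(FPKM + 1), 3 on log2(FPKM + 0.1), 38 on log2(FPKM + 1) without a filter, 364 with DESeq2, 0 to 278 with a library left out, 836 without the 2 TG libraries numbered 1, and 1 without the 2 IL4c libraries numbered 3. A number effect shared across the injections gave 3841 calls with SPARC, 3706 untreated and 2132 shared. For the difference, blocks of same-numbered libraries within an injection gave 472. Of untreated calls 48.4% were higher, against 29.3% with library totals only, 27.8% on log2(FPKM + 1), 27.3% on log2(FPKM + 0.1), 35% on log2(FPKM + 1) without a filter, 59.7% without a low-count filter and 63.4% for the untreated libraries alone. Among named genes, signs turned for Mrc1 (main 0.08) with limma-voom (-0.48, also with the correlation of same-numbered libraries). Its difference was -0.43 on log2(FPKM + 1) with and without a filter, and -0.52 on log2(FPKM + 0.1). A number effect shared across the injections gave -0.47. Without TG SPARC library 1 or both of that number it was -0.18, and without IL4c SPARC library 3 or both of that number -1.43. With each library left out in turn it ran from -1.43 to 0.52. They also turned for Il4ra without IL4c SPARC library 2 (-0.05; range -0.05 to 0.43), for Csf1r with library totals only (-0.01), on the 3 FPKM scales (-0.02) and without IL4c SPARC library 1 (0; range 0 to 0.12), and for Spi1 with at least 5 CPM in 3 libraries (0.01), without TG SPARC library 3 (0.03) and without IL4c SPARC library 1 (0.04; range -0.05 to 0.04). Over the 96 named genes and all alternatives, 2359 values kept direction and side of the threshold, 158 fell short of it, 43 passed it and 19 turned sign. The cause was not tested, except that leaving out libraries leaves fewer samples.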
